A study of Bos taurus with 9 samples.

Results

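In 255 windows of 1 Mb of the cattle genome, H3K9ac covered fewer bases and H3K27ac covered more bases in MDBK cells after butyrate than in control cells. These are called opposed windows here. MDBK is an established epithelial cell line from bovine kidney. Each autosome was divided into fixed windows from its position 1, which gave 2528 windows, and 1499 of them carried at least 5 kb of H3K9ac peaks in control. The opposed windows were 10.1% of all windows and 17.0% of those above the 5 kb floor. They were chosen by the values of the H3K9ac and H3K27ac lists, so their changes in these 2 marks are a description and carry no test.

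The experiment was chromatin immunoprecipitation sequencing with antibodies to H3K9ac, H3K27ac, RNA polymerase II (Pol II) and H3K9me3. One set of cells was labelled control, and the other received 5 mM butyrate for 24 h. Both conditions used the same cell line and medium, and each combination of antibody and condition had 1 library, so that no difference could be set against replicates. By their library names, control libraries were run on lane 4 and butyrate libraries on lane 5, so lane and treatment cannot be told apart. Each library was represented by the positions of its called peaks, with no heights. These numbered from 25628 peaks (control H3K9me3) to 187475 peaks (butyrate H3K27ac), and read depth was not used here.

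Histone acetylation is set by acetyltransferases and removed by histone deacetylases, and butyrate, a short-chain fatty acid produced by rumen microbes, inhibits many of the deacetylases. H3K9ac is known chiefly from active promoters. H3K27ac marks active promoters and active enhancers, and in most cells both marks lie on the same nucleosomes or next to each other. Pol II transcribes protein-coding genes, and H3K9me3 is found on silent heterochromatin.

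Among the 1499 windows above the floor, H3K9ac covered fewer bases after butyrate in 322 (21.5%) and H3K27ac covered more bases in 1424 (95.0%). Both marks rose in 1169 windows, called jointly gaining windows here, and both fell in 67 windows. H3K9ac rose while H3K27ac fell in 8. In direction, the opposed windows were thus mainly set apart by H3K9ac, since H3K27ac rose in most windows above the floor. Of the 322 windows with less H3K9ac, H3K27ac fell in 67. Over the 1499 windows the log2 ratios of the 2 marks ran in parallel (Spearman rho 0.72, a description, since all points share the same 4 libraries).

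**Figure D1:**
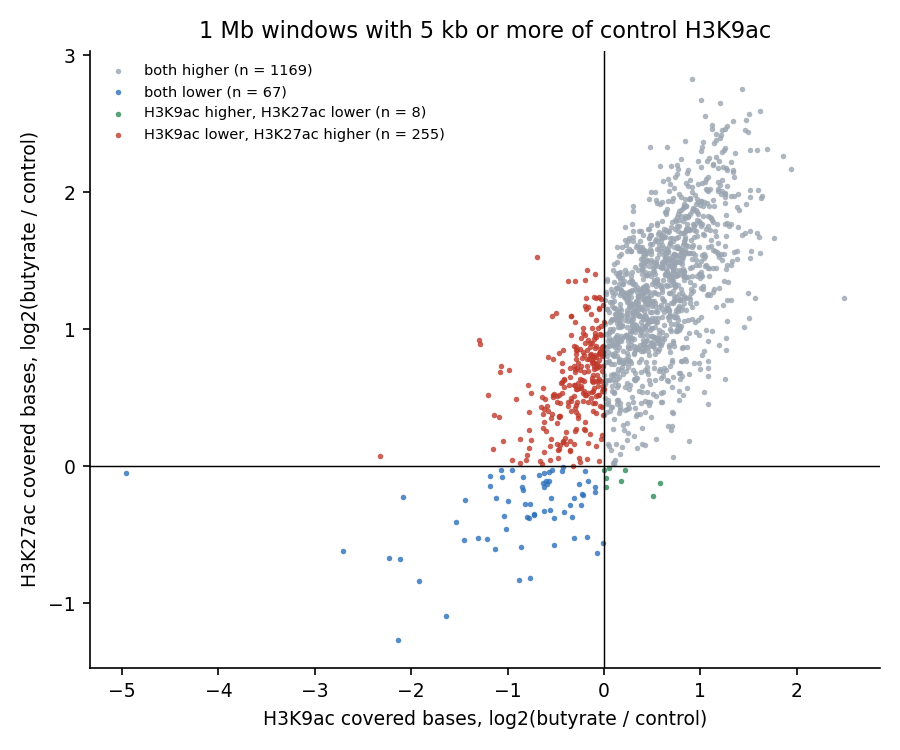
Change in covered bases of H3K9ac (x axis, log2 of butyrate over control) and of H3K27ac (y axis, same scale) in the 1499 windows with at least 5 kb of control H3K9ac, 1 point per window, coloured by the direction of the 2 changes. The 255 opposed windows (red) lie next to the lower left edge of the 1169 jointly gaining windows (grey), with no gap between them.

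Summed over the opposed windows, H3K9ac fell from 7.47 Mb in control to 6.12 Mb after butyrate (log2 ratio -0.29), and H3K27ac rose from 9.74 Mb to 15.3 Mb (log2 ratio 0.65). In single windows the H3K9ac change ran from -80.1% to -0.036%, with a median of -15.6%. The H3K27ac change ran from 0.15% to 188%, with a median of 52.8%. The H3K9ac fall was under 10% in 90 windows and at least 25% in 72 windows. H3K27ac rose by at least 50% in 136 windows and at least doubled in 29. The class therefore ran from windows with almost no change in H3K9ac to windows that lost most of it.

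The limits of the rule had members close on either side. The member nearest to no H3K9ac change, on chromosome 18 from 24000001 to 25000000, lost 3 bp (8.33 kb in both conditions after rounding). The nearest window outside, on chromosome 5 from 80000001 to 81000000, gained 2 bp. For H3K27ac the nearest member gained 26 bp and the nearest window outside lost 59 bp. At the floor the values were 5.27 kb of control H3K9ac inside and 4.91 kb outside, and 76 further windows had the same 2 directions below the floor. When both changes had to reach 10% of the control value, 145 of the 255 windows were left.

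The gain of H3K27ac in opposed windows was smaller than in jointly gaining windows, where it rose from 23.2 Mb to 57.1 Mb (log2 ratio 1.30). Opposed windows held 26.1% of all autosomal H3K27ac bases in control and 19.0% after butyrate, and 26.1% and 16.6% of the H3K9ac bases. As shares of each list, both marks thus declined in these windows as a whole. When each list was divided by its autosomal total, 155 windows met the rule, and 19 of the 255 were among them. Over all autosomes H3K27ac bases rose by a log2 ratio of 1.10, and 236 of the 255 windows (92.5%) rose by less. The gain of H3K27ac is therefore a gain in bases, and in most of these windows it was below that of the list as a whole.

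The net loss of H3K9ac bases lay in the longer peaks, while the number of peaks rose. This is a balance, since 9424 control peaks met no butyrate H3K9ac peak and 10068 butyrate peaks met no control one. In the opposed windows the number of H3K9ac peaks rose from 17280 to 18594 (log2 ratio 0.11, exact 95% binomial interval 0.08 to 0.14, counting error only). The mean number of bases per peak fell from 433 to 329. Peak number was higher in 161 windows, lower in 80 and equal in 14, while the mean length fell in 248 of the 255. Jointly gaining windows had the same direction in length, from 378 to 323 bases per peak, and a larger rise in number, from 48102 to 82533 peaks.

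By length class, H3K9ac peaks of 1 kb or longer numbered 947 in control and 118 after butyrate in the opposed windows, and those of 500 bp to under 1 kb numbered 3496 and 2051. Peaks of 300 to under 500 bp rose from 5084 to 5793, and shorter ones from 7753 to 10632. In bases, the 2 long classes lost 1.18 Mb and 1.06 Mb, and the 2 short classes gained 0.24 Mb and 0.65 Mb. In jointly gaining windows, peaks of 1 kb or longer also declined, from 1357 to 491, but peaks of 500 bp to under 1 kb rose from 7776 to 8460. H3K27ac in the opposed windows rose in all 4 classes, in proportion most in peaks of 500 bp to under 1 kb, from 3955 to 7264.

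**Figure D2:**
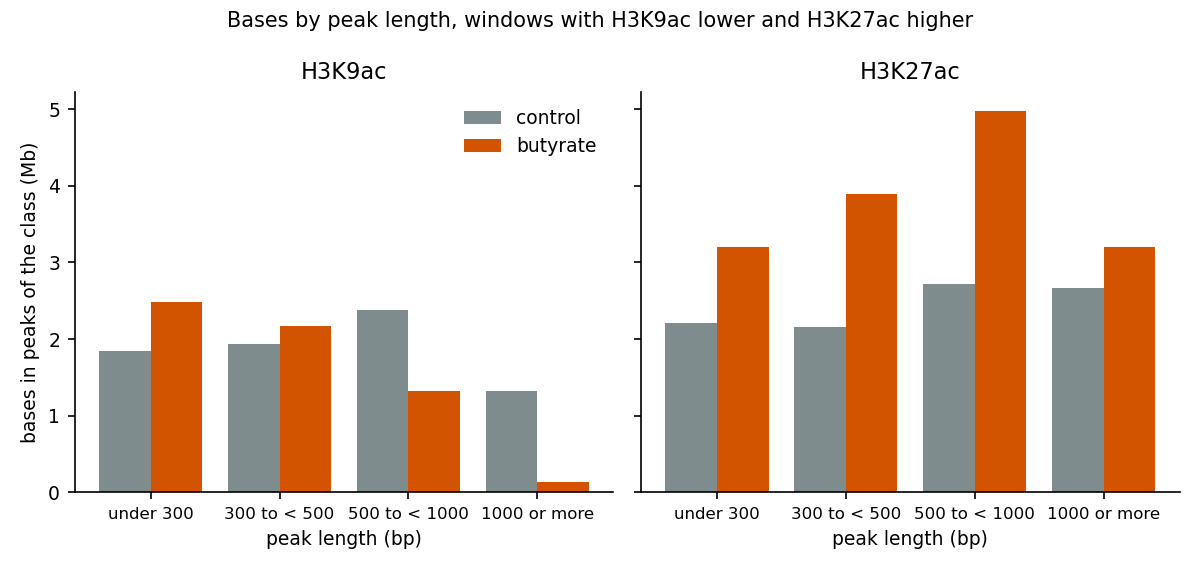
Bases (y axis, Mb) in H3K9ac peaks (left) and H3K27ac peaks (right) of the 255 opposed windows by peak length (x axis, bp), in control (grey) and after butyrate (orange), 1 library per bar. H3K9ac bases fall in the 2 longer and rise in the 2 shorter classes, with 1.32 Mb against 0.14 Mb in peaks of at least 1 kb, while H3K27ac rises in each class.

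The fate of single H3K9ac peaks was followed by overlap of at least 1 bp. Of the 17280 control peaks, 7856 (45.5%, exact binomial interval 44.7 to 46.2) met a butyrate H3K9ac peak, against 51.5% (51.1 to 52.0) in jointly gaining windows and 37.9% (36.3 to 39.6) where both marks fell. Kept control peaks had a median length of 418 bp, and lost ones of 279 bp. Of the 947 control peaks of at least 1 kb, 96 (10.1%) met no butyrate peak, 412 met 1, 328 met 2 and 111 met at least 3. Within these long peaks 44.2% of the bases were still covered after butyrate. Most long peaks were thus shortened or represented by several pieces, and the short peaks were those most often without a counterpart, since 69.5% of control peaks under 300 bp met none.

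In bases, 2.55 Mb (34.1%) of control H3K9ac in the opposed windows was covered in both conditions. A further 1.73 Mb (23.2%) lay in peaks that were kept in part, and 3.19 Mb (42.7%) in peaks that met no butyrate peak. Butyrate peaks outside control positions brought 2.91 Mb, and the flanks of kept peaks 0.66 Mb. New H3K9ac peaks were therefore also frequent here, at 10068 of 18594 (54.1%, 53.4 to 54.9), but less so than the 68.9% (68.5 to 69.2) in jointly gaining windows. In those windows new peaks brought 16.6 Mb against 7.15 Mb in lost peaks. New H3K9ac peaks of the opposed windows lay at a median of 3.58 kb from the nearest control H3K9ac peak, and 25.3% of them lay within 1 kb.

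**Figure D3:**
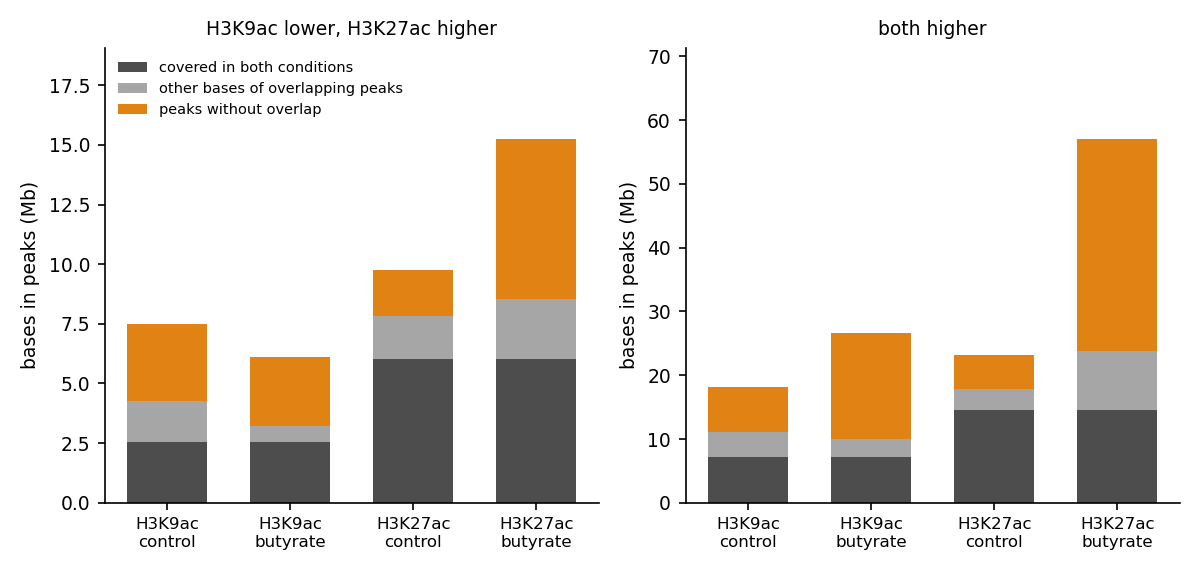
Bases in H3K9ac and H3K27ac peaks (y axis, Mb, with a different scale in each panel) in control and after butyrate, in the 255 opposed windows (left) and the 1169 jointly gaining windows (right). Dark grey is covered in both conditions, light grey is the rest of overlapping peaks, and orange is peaks without a counterpart; in the opposed windows the orange part is similar in both H3K9ac lists (3.19 Mb and 2.91 Mb).

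Control H3K27ac peaks met a butyrate peak of the same mark more often than control H3K9ac peaks did. The 2 marks are not on equal terms here, since butyrate peaks covered 15.3 Mb for H3K27ac and 6.12 Mb for H3K9ac. The rule itself asks for a rise of the first and a fall of the second. Of 20769 control H3K27ac peaks in the opposed windows, 68.8% (68.1 to 69.4) met a butyrate H3K27ac peak, close to the 68.0% (67.6 to 68.4) of jointly gaining windows. Its peaks increased to 33117, and 18816 of these (56.8%, 56.3 to 57.4) were new, against 70.0% (69.8 to 70.3) in jointly gaining windows. New H3K27ac peaks brought 6.71 Mb, while 1.93 Mb was in lost ones. Their median distance to the nearest control H3K27ac peak was 2.35 kb.

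The 2 marks were then compared at the positions where H3K9ac was lost. Of the 9424 lost control H3K9ac peaks, 61.7% (60.7 to 62.7) overlapped H3K27ac in control and 62.5% (61.5 to 63.5) after butyrate. In bases, H3K27ac covered 62.9% of the lost H3K9ac before and 61.2% after treatment. This counts all 4.92 Mb of lost H3K9ac bases, including those lost from kept peaks. H3K27ac at the sites of H3K9ac loss was thus about as frequent as before. In jointly gaining windows this share rose from 49.8% (49.1 to 50.4) to 61.6% (61.0 to 62.2) of lost peaks. Kept H3K9ac peaks of the opposed windows overlapped H3K27ac more often, at 75.6% in control and 88.9% after butyrate.

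Most of the new H3K27ac peaks lay outside H3K9ac peaks. Of the 18816, 13.6% (13.1 to 14.1) overlapped a control H3K9ac peak and 24.1% (23.4 to 24.7) a butyrate H3K9ac peak. In jointly gaining windows these shares were 11.4% (11.2 to 11.7) and 28.3% (28.0 to 28.6). New peaks met no control H3K27ac peak by definition. Of the control H3K9ac peaks in opposed windows, 68.0% overlapped control H3K27ac. The low share at control H3K9ac peaks thus follows in part from the definition. The ratio of H3K27ac to H3K9ac bases in the opposed windows rose from 1.30 to 2.49, and in jointly gaining windows from 1.28 to 2.14.

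Each opposed window was also divided into 10 parts of 100 kb. H3K9ac was present in 1997 of the 2550 parts, and it fell in 986 (49.4%) and rose in 1009 (50.5%). A median of 4 parts per window fell, and the part with the largest fall held at least 50% of the summed falls in 165 windows. Of the 986 falling parts, 629 (63.8%, 60.7 to 66.8) gained H3K27ac and 346 (35.1%, 32.1 to 38.2) lost it. The losses were larger where H3K27ac fell too, with a median of 2.17 kb per part against 1.25 kb. In jointly gaining windows, 70.5% (68.4 to 72.5) of 1976 falling parts gained H3K27ac and 27.6% (25.6 to 29.6) lost it, and the median falls were 0.731 kb where it fell and 0.574 kb where it rose. Of 2.49 Mb of summed H3K9ac falls, 1.25 Mb (50.4%) lay in parts that gained H3K27ac and 1.23 Mb (49.5%) in parts that lost it, against 34.5% of the summed falls in jointly gaining windows. At 100 kb, then, a large share of the H3K9ac loss coincided with loss of H3K27ac, which other parts of the same window outweighed.

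Opposed windows were rich in acetylation before treatment. Their median control coverage was 26.6 kb of H3K9ac and 34.6 kb of H3K27ac, against 12.9 kb and 16.4 kb in jointly gaining windows. Control H3K9ac enters the rule, both as the floor and in the change, so this is not an independent trait. The share of windows above the floor that were opposed was 6.32% (exact binomial interval 4.30 to 8.89) at 5 to 10 kb of control H3K9ac. It was 10.4% (8.00 to 13.3) at 10 to 20 kb, 29.4% (24.9 to 34.3) at 20 to 40 kb and 56.4% (46.2 to 66.3) at 40 kb or more. After butyrate, the median H3K9ac coverage was 22.4 kb in opposed and 20.1 kb in jointly gaining windows. The rule fixes the direction of this approach, since H3K9ac falls in one class and rises in the other.

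Pol II was not used by the rule. In the opposed windows it covered 1.72 Mb in control and 1.66 Mb after butyrate (log2 ratio -0.051), while it fell from 8.14 Mb to 5.57 Mb (log2 ratio -0.55) in jointly gaining windows and from 0.447 Mb to 0.224 Mb (log2 ratio -0.995) where both marks fell. The number of Pol II peaks fell from 6895 to 5760 (log2 ratio -0.26, -0.31 to -0.21), and the mean length rose from 250 to 289 bp. Few Pol II positions recurred. A butyrate Pol II peak met 513 of the 6895 control peaks (7.44%), and a control one met 516 of the 5760 butyrate peaks (8.96%). Changes in Pol II coverage thus compare mostly different positions. Pol II coverage rose in 114 of the 255 windows (44.7%, 38.5 to 51.0), against 28.5% of all windows above the floor. The sum in the opposed windows changed sign under several alternatives. With 1 library per condition, no direction of Pol II can be given for these windows.

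The frequency of a Pol II rise also moved with control H3K9ac. In opposed windows, Pol II rose in 33.3% (17.3 to 52.8) of those with 5 to 10 kb, 33.3% (21.4 to 47.1) at 10 to 20 kb, 42.3% (33.0 to 52.1) at 20 to 40 kb and 66.7% (52.9 to 78.6) at 40 kb or more. The shares in jointly gaining windows were 17.5% (13.99 to 21.5), 24.3% (20.5 to 28.5), 37.6% (31.5 to 43.9) and 58.3% (40.8 to 74.5). The share was thus higher in opposed windows in all 4 bins, with intervals that overlapped in each and that treat windows of the same libraries as independent. The summed Pol II log2 ratio was also higher in opposed windows in each bin. From the lowest to the highest bin it was -0.45, -0.42, -0.14 and 0.27, against -0.89, -0.61, -0.30 and -0.060 in jointly gaining windows.

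**Figure D4:**
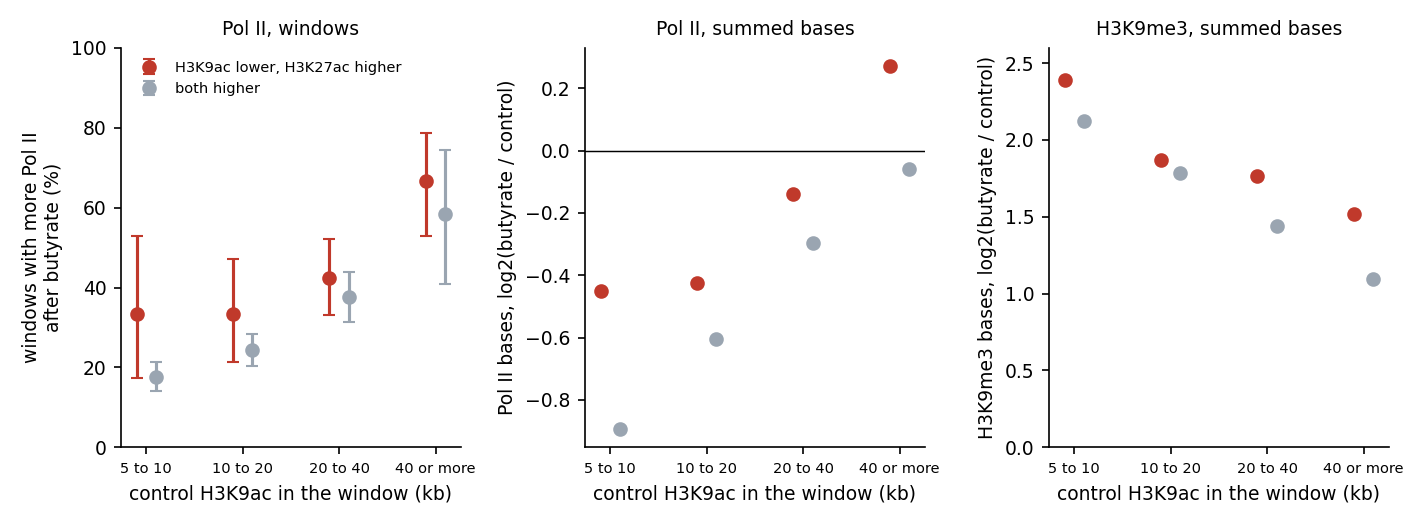
Pol II and H3K9me3 in opposed (red) and jointly gaining (grey) windows by control H3K9ac coverage (x axis, kb). Left, share of windows with more Pol II after butyrate (%, bars are exact 95% binomial intervals); middle and right, log2 ratio of summed Pol II and H3K9me3 bases. The Pol II shares rise from 33.3% to 66.7% and from 17.5% to 58.3%, higher in opposed windows in each bin with overlapping intervals, and H3K9me3 rises in all bins. Most Pol II and H3K9me3 peaks met no peak of the same antibody in the other condition.

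At single sites, Pol II stood more often where H3K9ac was kept. Butyrate Pol II peaks overlapped 25.1% (24.2 to 26.1) of kept and 9.07% (8.50 to 9.67) of lost control H3K9ac peaks in the opposed windows. Control Pol II peaks overlapped 10.8% (10.1 to 11.5) and 3.98% (3.59 to 4.39). Kept peaks were also longer, and the part of length in this difference was not tested. Jointly gaining windows had similar shares after butyrate, at 22.2% (21.7 to 22.7) of kept and 9.35% (8.98 to 9.73) of lost peaks.

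H3K9me3, also unused by the rule, rose in 254 of the 255 windows, against 99.4% of all windows above the floor. It covered 0.818 Mb in control and 2.75 Mb after butyrate (log2 ratio 1.75), close to the 1.76 of jointly gaining windows. Its positions also recurred seldom. A butyrate H3K9me3 peak met 17.7% of the 3334 control peaks, and a control one met 5.94% of the 9879 butyrate peaks. The size of this rise depended on the peaks used, with a log2 ratio of 0.62 with lists of equal size by longest peaks and of 4.28 with peaks of at least 500 bp. The exception lay on chromosome 12 from 79000001 to 80000000, with 1.05 kb in control and 0.894 kb after butyrate. Of the lost H3K9ac peaks, 1.77% (1.52 to 2.06) overlapped an H3K9me3 peak in control and 3.45% (3.09 to 3.84) after butyrate. At kept peaks the shares were 5.08% (4.60 to 5.59) and 4.25% (3.82 to 4.72). The number of H3K9me3 peaks in these windows rose from 3334 to 9879, in proportion more than the share at lost peaks. Beside that general rise, H3K9me3 became more frequent at lost and less frequent at kept peaks, the latter with overlapping intervals. The same directions were seen in jointly gaining windows, from 2.04% to 2.88% and from 4.95% to 3.79%. Where both marks fell, H3K9me3 became more frequent at lost peaks (2.61% to 6.10%) and also at kept peaks (6.44% to 7.97%).

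Opposed windows occurred on all 29 autosomes. They numbered 23 of 84 windows above the floor on chromosome 1 (27.4%, 18.2 to 38.2), 20 of 91 on chromosome 5 (22.0%, 13.97 to 31.9) and 7 of 26 on chromosome 25 (26.9%, 11.6 to 47.8). The lowest shares were 2 of 33 on chromosome 17 (6.06%, 0.74 to 20.2) and 8 of 88 on chromosome 2 (9.09%, 4.01 to 17.1). Most windows stood alone. They formed 210 runs, of which 172 were single windows, 32 were pairs, 5 had 3 windows and 1 had 4.

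A window next to an opposed window was itself opposed in 83 of 331 cases (25.1%, 20.5 to 30.1), against 172 of 1168 other windows above the floor (14.7%, 12.7 to 16.9). Windows near opposed ones were richer in control H3K9ac, with a median of 17.2 kb against 13.6 kb. At 10 to 20 kb of control H3K9ac the shares were 18.3% (11.7 to 26.5) and 8.35% (5.92 to 11.4), and at 40 kb or more 53.1% (34.7 to 70.9) and 58.0% (45.5 to 69.8).

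The longest run spanned chromosome 14 from 13000001 to 17000000. H3K9ac in its 4 windows was 27.1, 10.4, 14.8 and 60.3 kb in control and 12.8, 7.47, 11.03 and 35.8 kb after butyrate. H3K27ac was 54.7, 14.5, 13.8 and 81.6 kb in control and 88.1, 16.2, 15.6 and 118 kb after butyrate. The outer 2 windows therefore carried most of both changes. Pol II fell in the first 3 and rose in the fourth, from 9.96 to 11.9 kb. In control, Pol II coverage of all 4 windows was above the median of opposed windows (6.20 kb).

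Single windows were then ranked by the size of the H3K9ac fall. The largest fall was on chromosome 2 from 36000001 to 37000000, where H3K9ac went from 96.2 to 56.9 kb and H3K27ac from 118 to 135 kb. H3K9ac peaks numbered 177 and 170, and those of 1 kb or longer went from 18 to 0. The longest peak was 4072 bp in control and 928 bp after butyrate. Most of the loss lay in 1 part of 100 kb, from 36200001 to 36300000, where H3K9ac fell from 33.9 to 6.68 kb. H3K27ac also fell there, from 46.9 to 24.5 kb, while Pol II rose from 0.735 to 3.79 kb. The rise of H3K27ac came from other parts, above all from 36000001 to 36100000, where it went from 3.57 to 17.0 kb and H3K9ac from 4.28 to 8.91 kb.

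**Figure D5:**
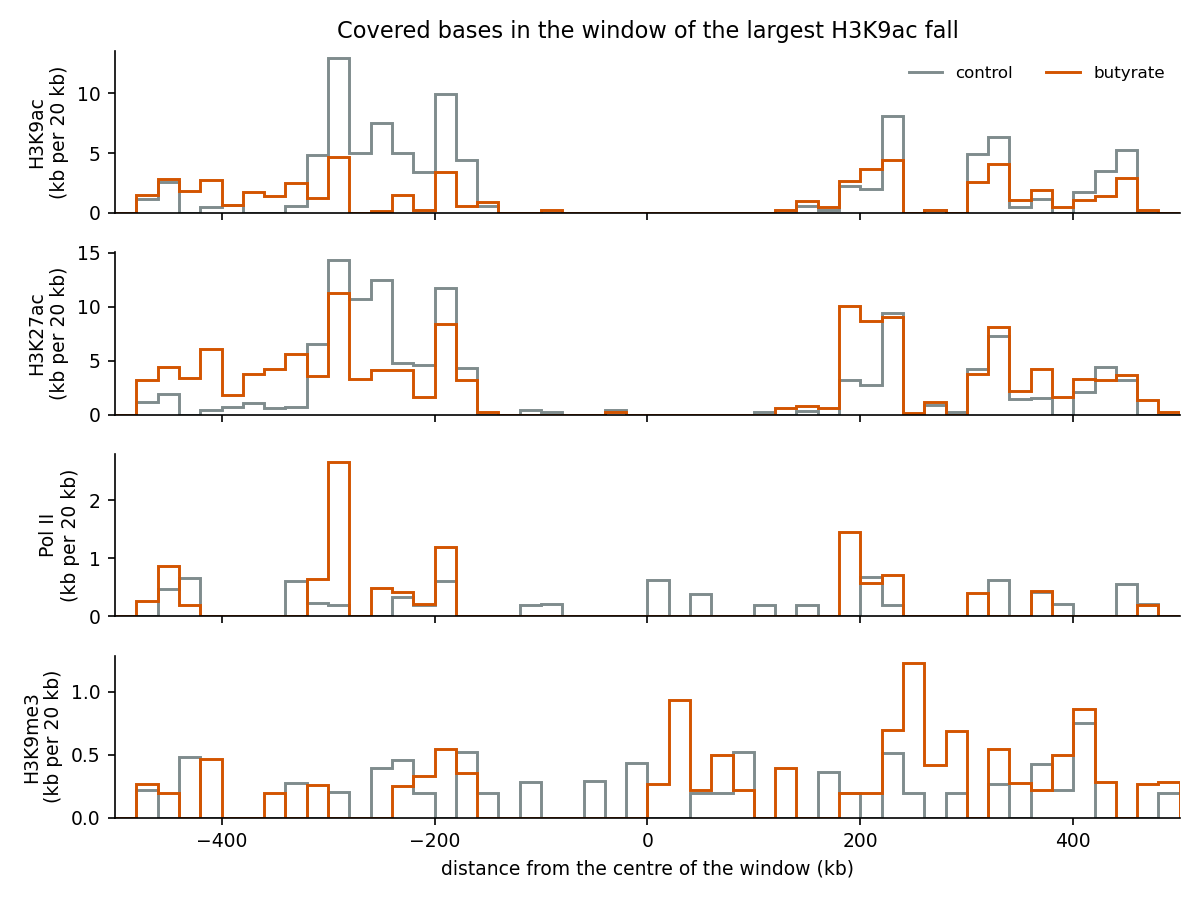
Covered bases per 20 kb (y axes, kb) of the 4 antibodies in the chromosome 2 window of the largest H3K9ac fall, by distance from the centre of the window (x axis, kb), in control (grey) and after butyrate (orange). Left of the centre, in the part where H3K9ac fell from 33.9 to 6.68 kb, H3K27ac fell as well, and its gains lie further left and right.

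Falls of H3K9ac by 26.97 and 26.3 kb followed. The first was on chromosome 1 from 90000001 to 91000000, with 94.5 kb in control and 67.5 kb after butyrate, and H3K27ac rose from 101 to 140 kb. The second was on chromosome 3 from 51000001 to 52000000, with 62.7 and 36.5 kb of H3K9ac and 85.8 and 113 kb of H3K27ac. Long H3K9ac peaks declined in both, from 20 to 4 and from 11 to 0 peaks of at least 1 kb.

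The remaining windows among the 10 largest falls lost between 17.8 and 24.5 kb of H3K9ac. They lay on chromosome 14 (16000001 to 17000000), chromosome 9 (73000001 to 74000000), chromosome 12 (19000001 to 20000000), chromosome 5 (73000001 to 74000000), chromosome 1 (43000001 to 44000000), chromosome 15 (14000001 to 15000000) and chromosome 13 (31000001 to 32000000). In the 10 windows, between 41.8% and 59.0% of control H3K9ac peaks met a butyrate H3K9ac peak. The number of H3K9ac peaks was lower after butyrate in 7 of the 10, unlike in most opposed windows. Pol II coverage rose in 8 of the 10. It went from 9.37 to 21.2 kb in the window of chromosome 9, whose H3K9ac fell from 85.5 to 61.9 kb, and from 9.66 to 18.1 kb in the second window of chromosome 1. It fell from 10.1 to 5.06 kb on chromosome 5, where H3K9ac lost 55.0% of its bases and H3K9me3 rose from 9.69 to 27.2 kb. Control coverage there was above the medians of opposed windows, which were 6.20 kb for Pol II and 2.62 kb for H3K9me3.

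Windows were also ranked by the size of the H3K27ac rise. H3K27ac rose most on chromosome 15 from 40000001 to 41000000, from 71.6 to 161 kb, while H3K9ac went from 44.8 to 40.02 kb. The next were on chromosome 5 from 57000001 to 58000000, with 47.9 and 122 kb, and on chromosome 10 from 44000001 to 45000000, with 74.1 and 145 kb. H3K9ac fell there from 38.0 to 29.4 kb and from 54.9 to 53.6 kb. In 8 of these 10 windows the number of H3K9ac peaks was not lower after butyrate, and H3K9ac falls ran from 0.791 to 16.2 kb.

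Beside the windows fixed by rank, the largest fall in percent was looked up after the values were seen. It was on chromosome 12 from 37000001 to 38000000, from 6.94 to 1.38 kb of H3K9ac (-80.1%). H3K27ac was almost level there, at 8.40 and 8.83 kb.

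The longest control H3K9ac peak of the opposed windows without any butyrate H3K9ac was at chr12:19617700-19619855 (2156 bp). Control H3K27ac covered 1934 bp of it, in 3 peaks. After butyrate, H3K27ac covered 1171 bp, in 3 peaks of 206, 236 and 729 bp, and a Pol II peak of 210 bp was present. In the window of the largest fall, the longest such peak was at chr2:36239359-36240763 (1405 bp), with 1403 bp of H3K27ac in control and 437 bp after butyrate. At both sites H3K27ac also covered fewer bases after butyrate, and it remained in part where H3K9ac was no longer called.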

How the data were processed

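Peak lists of 8 libraries were used, 1 per antibody and condition, and the input library was not analysed here. The submitters' processing notes name Trim Galore 0.4.1, BWA, MACS2 and the cattle assembly UMD3.1, with no role given. As the study's methods state, the authors aligned filtered reads with BWA to UMD3.1.1, kept uniquely placed reads with few mismatches, and called peaks per library with MACS2 at default settings against the same MDBK input. The deposited lists hold chromosome, start and end only, with no height, score or read count, so the depth behind a peak is unknown here. The number and length of called peaks depend on depth.

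The start column was taken as 0-based, and printed positions are 1-based. Covered bases of a peak crossing a window border were split, and peaks were counted by midpoint. The windows and lists of comparisons were chosen with earlier results of these data known. With 1 library per group, conditions were not tested against each other. Shares have exact (Clopper-Pearson) 95% intervals, which cover counting error only, since neighbouring peaks are not independent. Functions were tested on simulated data. The regions named were the 10 largest H3K9ac falls and H3K27ac rises, the longest run, the windows at the limits of the rule and the longest lost peaks. The gene table at hand was of another assembly (ARS-UCD2.0), so no genes or sequences at these positions are given. Tools were numpy 2.4.6 and scipy 1.17.1 in Python 3.11.15, with plots from matplotlib 3.10.9.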

Additional observations from a re-analysis of the deposited data

How the results depend on the processing

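No paired analysis was possible because the groups consist of 1 library each. A share counted as moved when it left the 95% counting interval of the main value. For the log2 ratios of covered bases, the width of that interval was borrowed from peak numbers, so it is not their own spread. A number of windows counted as moved when it changed by over 1.5 times. Of 67 alternative values, 28 did neither, 32 moved and 7 changed sign. The cause was not tested. The number of opposed windows (255) became 607 with peaks of at least 500 bp, 511 with lists of equal size by longest peaks, 511 with windows of 500 kb, 159 with windows of 2 Mb, 145 with changes of at least 10%, 155 with shares of each list and 88 with peak number in the rule. Of these 155 and 88 windows, 19 and 75 were among the 255. In peaks of at least 500 bp, 76.8% of windows above the floor were opposed. The grids of 500 kb and 2 Mb hold other numbers of windows, so their counts are not comparable with 255. As shares of the windows above their floors (2.5 kb and 10 kb), opposed windows were 20.1% and 19.0% there, against 17.0% in the main setting.

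The Pol II log2 ratio changed sign in 7 alternatives: 1.82 with peaks of at least 500 bp, 0.36 with longest peaks, 0.14 with peak number, 0.057 with changes of at least 10%, 0.036 with peaks less than 1 kb apart joined, 0.036 with windows of 500 kb, and 0.0074 without chromosomes 5 and 14 (added after the data were seen). It moved to -0.18 in windows shifted by 500 kb, -0.26 with shares of each list and -0.25 in windows of 2 Mb. The H3K9me3 log2 ratio stayed positive, at 4.28 (500 bp), 1.99 (joined), 1.87 (2 Mb), 0.62 (longest peaks), 1.66 (shares of each list) and 1.90 (without chromosomes 5 and 14).

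The share of control H3K9ac peaks that met a butyrate peak moved to 26.9% (500 bp), 53.7% (joined), 38.7% (longest peaks), 38.3% (peak number), 50.2% (shares of each list), 44.5% (changes of at least 10%) and 32.0% (overlap of 50% of the peak). The share of lost peaks with butyrate H3K27ac moved to 70.5%, 56.9%, 47.6%, 61.2%, 67.1% and, with 50% overlap, 59.4%. It was 61.0% in shifted windows, 63.6% in windows of 500 kb and 59.96% in windows of 2 Mb. Floors of 2.5 kb or 10 kb and omission of the last window of each chromosome moved none of the 5 values. Read depth was not used here, and the shorter H3K9ac peaks after butyrate occurred in other windows as well.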

Other observations

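The X chromosome was outside the windows described. Of its 149 windows, 16 had at least 5 kb of control H3K9ac, and H3K9ac covered fewer bases after butyrate in 15 of these. In 9 of the 16, H3K9ac covered fewer and H3K27ac more bases, so that they met the same conditions as the 255 autosomal windows. Over the whole chromosome, H3K9ac fell from 283 to 159 kb, while H3K27ac rose from 576 to 902 kb.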
